A study of Homo sapiens with 13 samples.

Results

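The comparison concerned 6 two-colour arrays of KMS12, a human myeloma cell line, and asked how the expression programme that followed induction of a hairpin against IRF4 looked at days 4-5 of doxycycline relative to days 2-3. They were 6 of the 13 arrays of the study, chosen by the cell line, day and series named in their labels. Each array set a culture with the IRF4 hairpin, labelled with Cy5, against a culture with a luciferase hairpin, labelled with Cy3. There were 3 culture series, named 1332, 1332b and 2046 after the label of the hairpin culture (shi_1332, shi_1332b and shi_2046). The hairpin label thus changes with the series, and a difference between hairpins cannot be told apart from one between series. The labels do not say how 1332b differs from 1332. The later window held 3 arrays, at day 5 in series 1332 and at day 4 in series 1332b and 2046. The early window held 3 arrays, at day 3 in series 1332 and at day 2 in series 1332b and 2046. Each series also had an uninduced array at day 0, without doxycycline, and series 1332 had 1 further array at day 7. Induced cultures received 20 ng/ml doxycycline. Each culture and day had a single array, and the labels do not say whether the series were separate infections, so the spread between series stands in for biological error. KMS12 is 1 line, and the ratios are averages over all cells of a culture, in which fewer cells expressing a gene and less RNA per cell cannot be told apart.

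IRF4 is a transcription factor of the interferon regulatory factor family that is needed for plasma cell differentiation. Myeloma, a cancer of plasma cells, depends on it, and its known target genes in these cells include regulators of immunoglobulin secretion, the cell cycle and metabolism. IRF4 binds DNA with partner factors at composite sites, such as those with ETS factors, and at interferon-stimulated response elements.

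Log2 ratios of the IRF4 hairpin over the luciferase hairpin were centred on the median of each array, and features of 1 gene were averaged. A value of 0 thus means the same level in both cultures relative to the typical gene, and a difference is days 4-5 minus days 2-3 within a series. Values of 3 arrays are listed in the order of series 1332, 1332b and 2046 throughout. There were 3732 genes with a value on all 6 arrays, of which 2271 had a gene name and 1461 were unnamed features, and 2949 also had a value on the 3 uninduced arrays. The table held 15246 features, and the array of the early window had the fewest measured features in each series, with 7861, 13216 and 12161 on the later arrays, 7140, 11584 and 10310 on the early arrays, and 8318, 14228 and 11304 on the uninduced arrays. Array intensities were not used here, so the brightness behind a ratio is unknown.

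The knockdown of IRF4 was shallower at the later window in every series. Taken as a share of the luciferase culture, IRF4 stood at 66.8%, 65.5% and 59.2% at days 4-5, against 45.2%, 29.3% and 48.3% at days 2-3 and 115.9%, 109.1% and 105.4% without doxycycline. On the log2 scale the ratios were -0.58, -0.61 and -0.76 at days 4-5, against -1.15, -1.77 and -1.05 at days 2-3. The later and early arrays did not overlap, and all 3 later arrays stayed under the uninduced ones. The mean difference was 0.67 ± 0.25 (SE, 3 series), or 1.59-fold, with a limma adjusted p of 0.276 over all genes. The exact sign-flip permutation test over the 3 series gave p = 0.25 (two-sided), the smallest that 3 pairs allow. Both features for IRF4 gave the same direction. At day 7 of series 1332 the level was 59.7% of control, on a single array.

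**Figure D1:**
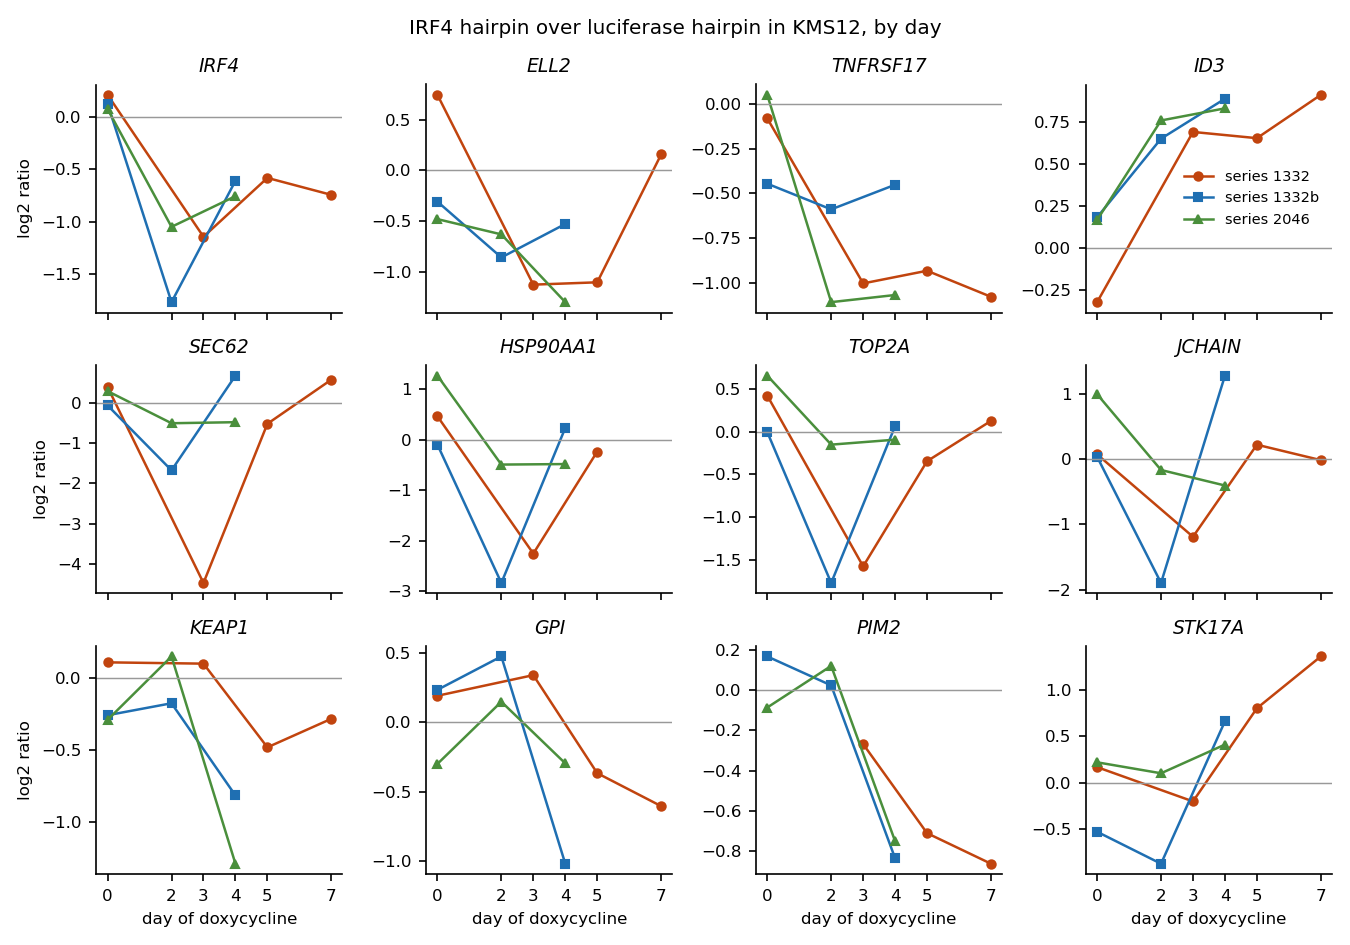
Log2 ratio of the IRF4 hairpin culture over the luciferase culture for 12 genes against day of doxycycline, with 1 point per array and a line per series, and with y axes that differ between panels. IRF4 stays under 0 at days 4-5 but less so than at days 2-3, ELL2 and TNFRSF17 lie under 0 and ID3 above 0 in both windows, SEC62, HSP90AA1, TOP2A and JCHAIN lie nearer 0 or above it in series 1332 and 1332b after a low at days 2-3, and KEAP1, GPI and PIM2 lie lower, and STK17A higher, at days 4-5 than at days 2-3 in each series.

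Over all genes, no difference between the windows passed limma's test with the series as a block. Of 3732 genes, 0 had an adjusted p under 0.05 (0%), the lowest adjusted p was 0.274, and 597 (16%) had an unadjusted p under 0.05. Of these 597, 420 (11.3% of the genes tested) were higher at days 4-5 and 177 (4.74%) were lower. Direction was shared by all 3 series for 1562 genes (41.9%), of which 879 (23.6%) were higher and 683 (18.3%) lower. The 3 later arrays lay wholly above the 3 early arrays for 430 genes (11.5%) and wholly below them for 333 (8.92%). With a mean difference of at least 0.5 in size added to the shared direction, 514 genes (13.8%) were higher and 239 (6.4%) lower.

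Series 2046 differed from the other two in the spread of its early array. The SD of the log2 ratio over the tested genes was 0.440, 0.377 and 0.398 on the later arrays, against 0.711, 0.768 and 0.381 on the early arrays. On the uninduced arrays, over the genes with a value there, it was 0.409, 0.226 and 0.419. The early arrays of series 1332 and 1332b thus had the widest spread. In series 2046 both windows had about the same, and neither was wider than its uninduced array. When series 2046 was left out, 318 genes (8.52%) passed an adjusted p of 0.05, 304 higher (8.15%) and 14 lower (0.375%). Leaving out series 1332 or series 1332b gave 0 calls each. Of the 304 called higher from series 1332 and 1332b alone, 210 (69.1%) also had a positive difference in series 2046, with a median of 0.113 there, where 56.3% of the genes measured on all 9 arrays were higher later. Of the 14 called lower, 12 were lower in series 2046 too, with a median of -0.986. With 2 series in that fit, its residual rests on the agreement of a single pair of differences.

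Across the tested genes the within-series differences correlated at r = 0.594 between series 1332 and 1332b, 0.160 between 1332 and 2046 and 0.219 between 1332b and 2046. These are correlations across genes, which are not independent replicates. The later arrays resembled each other less than the early arrays did. Between series, later arrays correlated at -0.061 (1332 with 1332b), 0.131 (1332 with 2046) and 0.315 (1332b with 2046), against 0.701, 0.404 and 0.466 for the same pairs of early arrays.

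**Figure D2:**
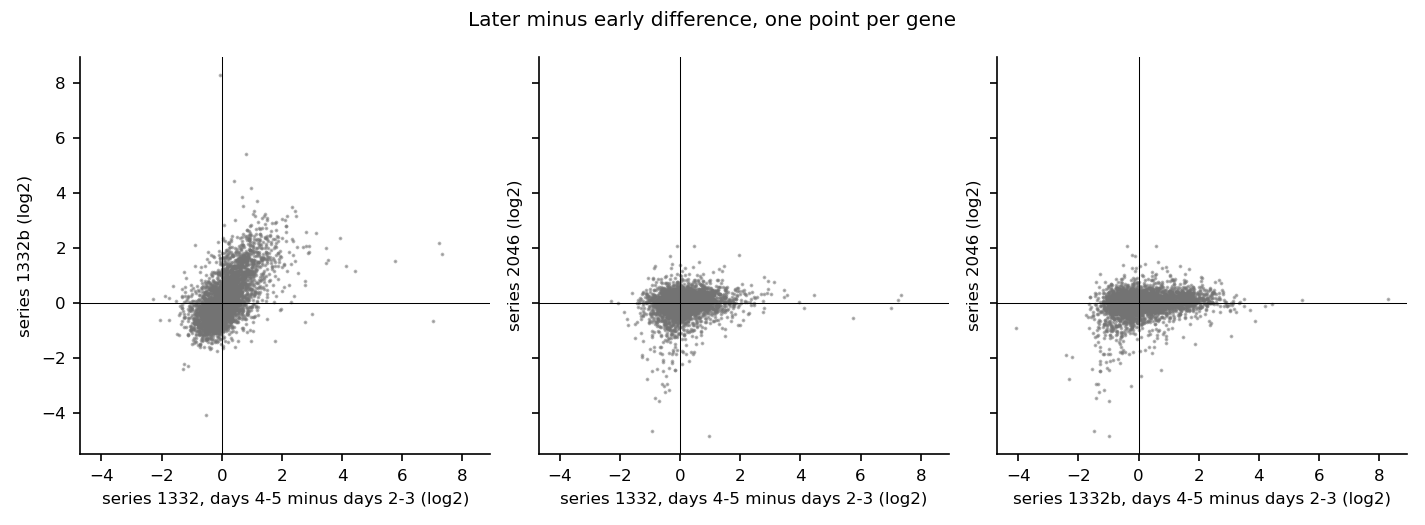
Days 4-5 minus days 2-3 (log2) of each of 3732 genes, 1 series on the x axis and another on the y axis in each of 3 panels. The cloud runs along the diagonal towards higher later values for series 1332 and 1332b (r = 0.594) and lies nearly flat against series 2046 (r = 0.160 and 0.219), which also has a tail of genes far lower at day 4.

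The extent to which the early programme was still present at days 4-5 was read in a series that took no part in defining it. For each series, the programme was the mean change from uninduced at days 2-3 in the other two series, and the slope of the held-out series on it was taken for 2949 genes, with 1 meaning the same size and 0 none. Series 1332 had a slope of 0.44 at day 5, against 1.12 at day 3. Series 1332b had -0.13 at day 4, against 0.85 at day 2. Series 2046 had 0.29 at day 4, against 0.38 at day 2. The slope was smaller at the later window in all 3 series, by the least in series 2046, where the early slope was itself small. At day 7 of series 1332 it was 0.16 over 2676 genes. Measured as log2 ratios against 0, without the uninduced arrays, the later and early slopes were 0.21 and 0.99 in series 1332, -0.13 and 1.28 in series 1332b, and 0.18 and 0.26 in series 2046, and day 7 of series 1332 had -0.18. The uninduced arrays of series 1332 and 2046 were not flat, with a correlation of 0.357 between them. Centring removed a median of 0.052, 0.026 and 0.372 from the 3 uninduced arrays. Before centring, features of the series 2046 uninduced array with a value on all 13 arrays had a median 0.679 above that of the rest. The part of this offset in the changes from uninduced of series 2046 was not tested.

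By slope, a programme of days 4-5 of its own was shared less than that of days 2-3 in series 1332 and 1332b, but not in series 2046. The correlations with it at days 4-5 were 0.278, 0.028 and 0.299. Those of the early arrays with the days 2-3 programme were 0.734, 0.663 and 0.555. The slope of the held-out later array on the mean days 4-5 change of the other two series was 0.49 in series 1332, 0.02 in series 1332b and 0.43 in series 2046. The early arrays had slopes of 0.59, 0.82 and 0.38 on the same later programmes, so in series 1332 and 1332b the early array had the larger slope. As log2 ratios against 0, the later and early slopes on this programme were 0.09 and 0.05 in series 1332, 0.16 and 0.95 in series 1332b, and 0.46 and 0.21 in series 2046, which turns the order in series 1332. For the other lines of the study, H929 and SKMM1 at day 4, also myeloma lines with a 2046 hairpin, the correlation with the KMS12 programme of days 4-5 was 0.283 and 0.311 for H929 (2 arrays) and 0.313 for SKMM1 (1 array). With the programme of days 2-3 the same arrays correlated at 0.538, 0.638 and 0.612. Here the KMS12 programmes were changes from uninduced, whereas H929 and SKMM1 had no uninduced array and were read as log2 ratios. With the programmes also taken as log2 ratios against 0, the correlations were 0.159, 0.107 and 0.13 for days 4-5. For days 2-3 they were 0.532, 0.61 and 0.59.

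**Figure D3:**
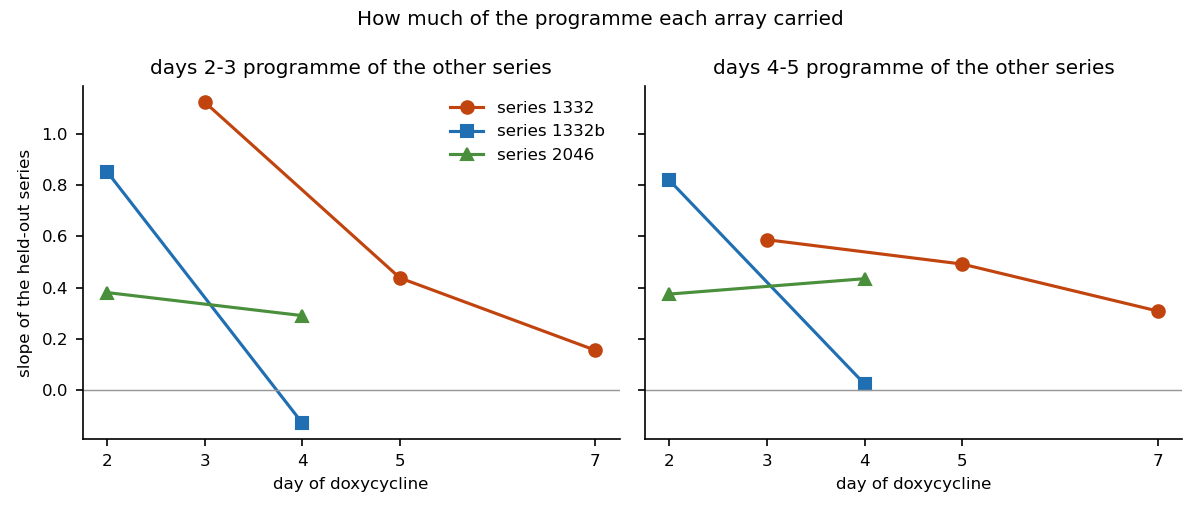
Slope of the change from uninduced in a held-out series on the programme of the other two series, against day of doxycycline, for the days 2-3 programme (left) and the days 4-5 programme (right), with 1 point per array. On the left every series has a smaller slope at its later array than at its early one (0.44 and 1.12, -0.13 and 0.85, 0.29 and 0.38), and on the right, for change from uninduced, series 2046 alone has a larger one. Against 0, series 1332 also has a larger one on the right (0.09 and 0.05).

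Most genes lowered early were higher at days 4-5 than at days 2-3, by a wide margin in series 1332 and 1332b and a narrow one in series 2046. A gene was called early lowered or early raised in a held-out series where the other two series both had it at least 0.5 from uninduced at days 2-3. In series 1332 the 327 early lowered genes had a median change of -0.36 at day 5, against -1.18 at day 3, and 314 of them (96.0%) were higher at day 5. In series 1332b the 317 early lowered genes had a median of 0.21 at day 4, against -1.26 at day 2, and 312 (98.4%) were higher at day 4. In series 2046 the 562 early lowered genes had a median of -0.42 at day 4, against -0.50 at day 2, and 364 (64.8%) were higher at day 4. Over all 2949 genes, 55.0%, 50.2% and 56.3% were higher at the later window. Relative to uninduced, the later median of early lowered genes was thus above 0 in series 1332b, under it in series 1332, and about as low as the early one in series 2046. With classes and values taken as log2 ratios against 0, the later and early medians were -0.25 and -1.10 in series 1332, 0.02 and -1.27 in series 1332b, and -0.21 and -0.29 in series 2046, so in series 1332b the later median lay near 0 and not above it.

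Early raised genes were less displaced. In series 1332 the 128 early raised genes had a median change of 0.42 at day 5, against 0.69 at day 3, and 103 (80.5%) lay lower at day 5. In series 1332b the 214 had 0.03 at day 4, against 0.38 at day 2, and 157 (73.4%) lay lower. In series 2046 the 246 had 0.25 at day 4, against 0.28 at day 2, and 127 (51.6%) lay lower. Over all genes 44.9%, 49.8% and 43.6% lay lower at the later window. Against 0, the later and early medians were 0.16 and 0.47 in series 1332, -0.03 and 0.64 in series 1332b, and 0.26 and 0.26 in series 2046, where 43.0% lay lower later.

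When the early classes were drawn from all 3 series at once, 281 of 2949 genes (9.53%) were early lowered and 84 (2.85%) early raised. Of the 281, 194 were higher at days 4-5 than at days 2-3 in every series and 87 were mixed. Of the 84, 50 were lower at days 4-5 in every series and 34 were mixed. Direction alone was counted, so genes that passed their uninduced level are included. No early lowered gene was lower still at days 4-5 in all 3 series, and no early raised gene was higher still. The arrays of days 2-3 chose these genes, so later values nearer 0 follow in part from the choice, and nothing is read from these counts. The median change from uninduced of the early lowered genes was -0.31 at days 4-5, against -1.18 at days 2-3, and that of the early raised genes was 0.43, against 0.85.

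The early lowered genes with the largest differences included secretory, chaperone and nuclear proteins. SEC62, a subunit of the machinery that moves proteins into the endoplasmic reticulum, had log2 ratios of -0.52, 0.67 and -0.48 at days 4-5, against -4.47, -1.67 and -0.51 at days 2-3. The later ratio was far higher in series 1332 and 1332b, and the series 2046 ratio differed by 0.03. TMEM167A, a Golgi protein of the secretory pathway, had 0.19, 0.27 and -0.24 at days 4-5, against -2.60, -1.80 and -1.20 at days 2-3, with no overlap and a mean difference of 1.94 ± 0.36 (SE, adjusted p = 0.274, limma). PHIP, a substrate receptor of a cullin ubiquitin ligase, had -0.80, 0.20 and -0.08 at days 4-5, against -3.70, -1.87 and -0.89 at days 2-3. Its windows did not overlap either. ATRX, a chromatin remodeller, had -0.11, 0.54 and -0.27 at days 4-5, against -3.56, -0.92 and -0.74 at days 2-3. HSP90AA1, the stress-inducible cytosolic HSP90, had -0.24, 0.23 and -0.48 at days 4-5, against -2.25, -2.83 and -0.49 at days 2-3. The windows lay apart by no more than the series 2046 difference of 0.01. TMEM123, WDR72 and WDR36, the last a protein of ribosome assembly, had mean differences of 1.76, 1.76 and 1.59.

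Further genes chosen by the smallest p were higher at days 4-5 in all 3 series. FAR1, a fatty acyl-CoA reductase, had -0.38, -0.22 and -0.54 at days 4-5, against -2.30, -1.94 and -1.07 at days 2-3. EDEM3, a mannosidase-like protein that marks misfolded glycoproteins for disposal, had -0.74, 0.04 and 0.15, against -2.31, -1.76 and -0.44, with an overlap between series 1332 later and series 2046 early. CASP8, the initiator caspase of death receptors, differed in sign between the windows, with 0.47, 0.56 and 0.16 at days 4-5, against -0.49, -0.60 and -0.63 at days 2-3. PELI1, a ubiquitin ligase of Toll-like receptor signalling, had 0.19, 0.67 and -0.13, against -1.22, -0.28 and -1.28. The windows of FAR1, CASP8 and PELI1 did not overlap. Mean differences were 1.39, 1.32, 0.97 and 1.17 for these 4 genes, each with an adjusted p of 0.274. With features measured in both windows of at least 2 series, the differences were 0.72 for EDEM3 and 0.51 for CASP8 (adjusted p = 0.459 and 0.465).

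A small group had ratios far from 0 in both windows. By a cut chosen after the values were seen, 139 of 3732 genes (3.72%) had a ratio at or under -0.5 on all 3 early arrays, and 7 of these 139 (5.04%) also did so on all 3 later arrays, where 18 of all genes (0.482%) did. The named ones were IRF4 itself, ELL2, API5, MATR3 and RPP30. ELL2, an elongation factor that plasma cells use to make secreted immunoglobulin mRNA, had -1.11, -0.53 and -1.30 at days 4-5, against -1.13, -0.86 and -0.63 at days 2-3. It was thus lower later in series 2046 and a little higher in series 1332b, and its uninduced ratios were 0.75, -0.31 and -0.48. At day 7 of series 1332 ELL2 had 0.16, so its low was not seen there. API5, an inhibitor of apoptosis, had -0.83, -0.95 and -0.62, against -0.81, -1.49 and -0.77. MATR3, a nuclear RNA-binding protein, and RPP30, a subunit of RNase P, had early ratios as low as -2.98 and -1.75 in series 1332b and later ratios between -0.51 and -0.79. The uninduced ratios of MATR3 were 0.35, -0.63 and -0.30, so in series 1332b its later ratio lay above uninduced, and measured from uninduced MATR3, like IRF4, lay nearer 0 at days 4-5 in every series. MATR3 had 0.11 at day 7 of series 1332, where API5 and RPP30 had no value.

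Among raised genes, 50 of 3732 (1.34%) had a ratio at or over 0.5 on all 3 early arrays, and 2 of these (4%) did so on all 3 later arrays, where 9 of all genes (0.241%) did. They were ID3 and FN1. ID3, an inhibitor of E-protein transcription factors, had 0.65, 0.89 and 0.83 at days 4-5, against 0.69, 0.65 and 0.76 at days 2-3 and -0.32, 0.18 and 0.17 without doxycycline, with 0.91 at day 7. In KMS12 all induced arrays of ID3 lay above all uninduced ones. FN1, fibronectin, had 1.36, 0.90 and 1.59 at days 4-5, against 1.53, 0.96 and 0.66 at days 2-3, with 0.46 and 0.39 without doxycycline in series 1332 and 1332b and no value in series 2046. Of its 6 features, 5 were higher later.

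All 8 plasma cell markers were measured. Since both channels hold KMS12 cells, the ratios show no absolute level and cannot check the cell type. TNFRSF17 encodes BCMA, a receptor for survival ligands of plasma cells. It had -0.93, -0.45 and -1.07 at days 4-5, against -1.01, -0.59 and -1.11 at days 2-3 and -0.08, -0.45 and 0.05 without doxycycline, with a difference of 0.08 ± 0.21 (SE). The low of TNFRSF17 was thus as deep later as early, and in series 1332b it was there before induction. PRDM1, the plasma cell repressor Blimp-1, had -0.53, -0.57 and -0.40, against -0.22, -0.87 and -0.61, a difference of 0.07 ± 0.23. SLAMF7, a surface receptor of plasma cells, had -0.23, -0.90 and -1.10, against -1.03, -0.76 and -0.74, a difference of 0.10 ± 0.28. JCHAIN, the joining chain of polymeric immunoglobulin, was the exception in size, with 0.22, 1.27 and -0.41, against -1.19, -1.90 and -0.17, and an adjusted p of 0.295. It was higher later in series 1332 and 1332b and lower in series 2046. XBP1, SDC1 and CD38 had differences of -0.10, -0.20 and -0.06. Of 118 markers of B, T, myeloid, erythroid and stromal cells, 43 were measured. Their median differences were -0.03 over 18 B cell markers, -0.09 over 10 T cell markers, 0.02 over 6 myeloid markers and -0.07 over 9 erythroid and stromal markers, beside 0.01 over all genes.

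Secretory transport had the highest median of the 31 gene lists. Of its 17 measured members, 6 were higher in all 3 series (23.6% of all genes) and 1 was lower (18.3%), and the median difference was 0.59, beside 0.01 over all genes. The medians by series were 0.47, 1.32 and -0.00, so it rested on series 1332 and 1332b. Besides SEC62 and TMEM167A, SRP9 of the signal recognition particle had -0.23, 0.50 and -0.04 at days 4-5, against -1.37, -1.80 and -0.10 at days 2-3. The exception was KDELR1, the receptor that retrieves resident proteins to the endoplasmic reticulum. It had -0.10, -0.98 and -0.87 at days 4-5, against 0.58, 0.38 and 0.03 at days 2-3, an inverse course with no overlap. In the list of endoplasmic reticulum folding, 3 of 12 were higher in all 3 series and 1 was lower, with a median of 0.14. DNAJC10, a disulfide reductase of that compartment, had -0.53, 0.35 and -0.31, against -1.35, -1.33 and -0.73. HSP90B1, its HSP90, had -0.29, -0.29 and -0.92, against -1.24, -2.54 and -0.71, higher in all but series 2046.

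Of 29 mitotic genes measured, 9 were higher in all 3 series (23.6% of all genes) and 3 were lower (18.3%), with a median of 0.26 and series medians of 0.32, 0.42 and -0.05. MAD2L1, a spindle checkpoint protein, had -0.36, 0.20 and -0.21 at days 4-5, against -1.39, -1.89 and -0.39 at days 2-3. TOP2A, the topoisomerase of dividing cells, had -0.35, 0.07 and -0.09, against -1.58, -1.77 and -0.15. PLK1, the mitotic kinase, went the other way, with -0.24, -0.78 and -0.50, against 0.18, 0.16 and 0.49, and no overlap. CKS2, a cyclin-dependent kinase subunit, had -0.28, 0.30 and 0.18, against -0.91, -0.76 and -0.23. In the list of DNA replication, 6 of 26 were higher in all 3 series and 4 lower, near the shares over all genes (23.6% and 18.3%), with a median of 0.16. PCNA, the sliding clamp, had -0.07, -0.01 and 0.17, against -0.77, -1.12 and -0.19. TK1, thymidine kinase, had -0.41, -0.19 and -0.08, against 0.20, 0.65 and 0.41, and CDT1, which loads the replicative helicase, had -0.59, -0.43 and 0.01, against 0.53, 0.71 and 0.43. The windows of PCNA, TK1 and CDT1 did not overlap.

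Of 19 translation factors, 6 were higher in all 3 series (23.6% of all genes) and 2 lower (18.3%), with a median of 0.26. EIF4E, which binds the mRNA cap, had 0.36, -0.15 and -0.34 at days 4-5, against -0.998, -1.15 and -0.44 at days 2-3. EIF4G1, the scaffold that binds EIF4E, had 0.02, -1.39 and -2.13, against 0.46, 0.02 and 0.84, the lowest member of the list with a difference of -1.61 ± 0.45. RPS6KB1, the S6 kinase, had -0.10, 0.29 and 0.05, against -1.21, -1.03 and -0.41. All 3 had windows that did not overlap. Of 18 genes of MYC targets and ribosome assembly, 5 were higher in all 3 series and 4 lower, with a median of -0.02. DDX21, a nucleolar helicase, had -0.03, -0.14 and -0.37, against -1.51, -2.27 and -0.53, whereas PES1, also nucleolar, had 0.00, -0.74 and -0.57, against 0.20, 0.13 and 0.44. MYC itself had -0.06, -0.40 and -0.01, against 0.10, -0.76 and -0.30, a difference of 0.16 ± 0.23.

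**Figure D4:**
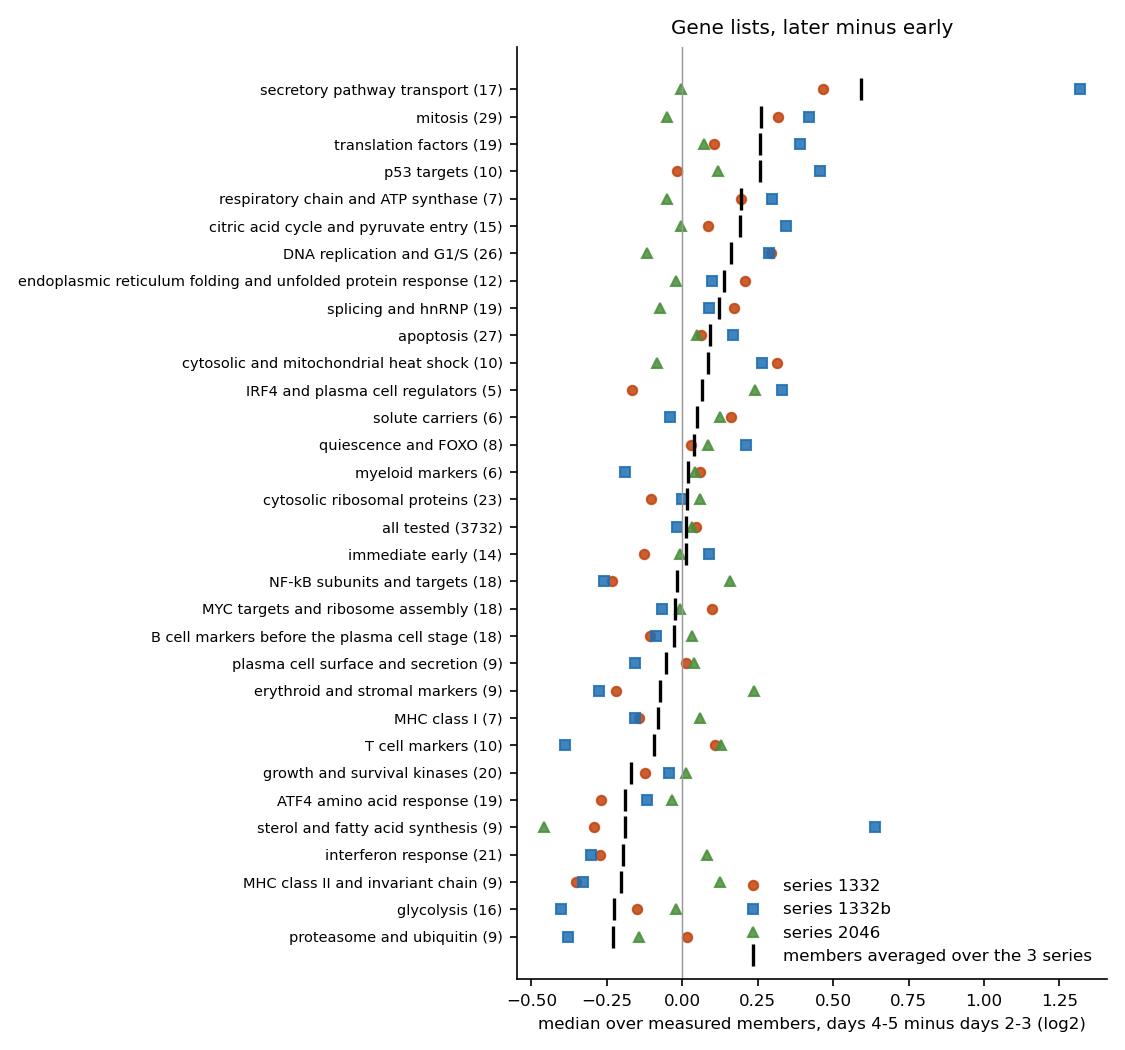
Median days 4-5 minus days 2-3 difference (log2) of the measured members of 31 gene lists and of all tested genes, with the number measured in brackets, a coloured mark for each series and a black bar for members averaged over the series. Secretory transport has the highest median (0.59) and the proteasome list the lowest (-0.23), and series 2046 lies near 0 for secretory transport and for mitosis.

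Glycolysis and lipid synthesis had medians under 0, with the lipid list above 0 in series 1332b. Of 16 genes of glycolysis, 5 were lower in all 3 series (18.3% of all genes) and 2 higher (23.6%), with a median of -0.23 and series medians of -0.15, -0.40 and -0.02. GPI, glucose-6-phosphate isomerase, had -0.37, -1.02 and -0.30 at days 4-5, against 0.34, 0.48 and 0.15 at days 2-3, and 0.19, 0.24 and -0.30 without doxycycline, so in series 2046 its later ratio equalled the uninduced one. ALDOC, an aldolase, had -0.49, -0.31 and -0.18, against 0.29, 0.56 and 0.25, again with no overlap. ALDOA, another aldolase, was among the early raised genes and had 0.59, -0.66 and -0.45 at days 4-5, against 0.82, 0.73 and 0.52. ENO1, enolase, had 0.20, -0.80 and 0.08, against 0.55, 0.64 and 0.13. LDHA, in contrast, had 0.15, -0.48 and -0.04, against -0.14, -0.59 and -0.11. Among 9 genes of sterol and fatty acid synthesis, 0 were higher in all 3 series and 3 were lower, with a median of -0.19 and series medians of -0.29, 0.64 and -0.46. These were POR, the reductase that supplies electrons to P450 enzymes, SCD, the stearoyl-CoA desaturase, and LSS, lanosterol synthase. SCD had -0.87, -0.83 and -0.48 at days 4-5, against 0.02, -0.20 and -0.17 at days 2-3. IDI1, of the isoprenoid route, had the opposite difference of 1.28 ± 0.44, with -1.06, 0.10 and -0.73, against -2.53, -2.28 and -0.71. In the citric acid cycle list 4 of 15 were higher in all 3 series and 2 lower, with a median of 0.19, which was -0.10 with features on all 13 arrays. DLD, the dihydrolipoamide dehydrogenase of its large complexes, had 0.43, 0.20 and -0.12, against -0.59, -1.36 and -0.43.

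Of 19 genes of the ATF4 amino acid response, 7 were lower in all 3 series (18.3% of all genes) and 2 higher (23.6%), with a median of -0.19, and 6 of the 19 had later arrays wholly below the early ones (8.92% of all genes). The median was 0.09 in the fit with 9 arrays, which turns its direction. PYCR1, of proline synthesis, had -0.22, -0.30 and -0.48 at days 4-5, against 0.20, 0.49 and 0.45 at days 2-3. SLC7A5 and SLC3A2 are the 2 chains of a transporter of large neutral amino acids. SLC7A5 had -0.83, -0.57 and -0.36, against -0.05, 0.11 and -0.08, and SLC3A2 had -0.72, -0.36 and -0.34, against 0.02, 0.25 and -0.07. Both chains were lower on every later array than on any early array. The 2 genes higher in all 3 series were the aminoacyl-tRNA synthetases IARS1, by 0.41, and NARS1, with -0.59, -0.01 and -0.14, against -1.41, -1.60 and -0.29. The list's median was -0.05 without series 1332 and -0.33 without series 2046.

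Of the lists not yet described, the p53 targets had the highest median, 0.26 over 10 members (-0.05 with features on all 13 arrays), and the proteasome list the lowest, -0.23 over 9. CCNG1, a cyclin induced by p53, had -0.29, 0.40 and 0.07 at days 4-5, against -1.36, -1.91 and -0.07 at days 2-3. CDKN1B, the inhibitor p27 of the quiescence list, had -0.18, 0.47 and 0.20, against -1.11, -1.44 and 0.06. Both were higher in all 3 series, and in series 2046 by far the least. Of 18 NF-kB genes, 3 were lower in all 3 series and 1 was higher, and of 27 apoptosis genes 9 were higher and 5 lower, beside 23.6% higher and 18.3% lower over all genes. NFKB2, a precursor of the p52 subunit, had -0.46, -0.11 and 0.24, against 0.32, 0.69 and 0.34, with no overlap. BAK1, a pore-forming protein of apoptosis, had -1.002, -0.81 and -0.07, against -0.26, 0.32 and 0.02. Of 23 cytosolic ribosomal proteins, 6 were higher and 3 lower in all 3 series, with a median of 0.02.

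Genes that departed from uninduced mainly at days 4-5 were taken as those within 0.3 of it on average at days 2-3 whose later minus early difference had the same sign in all 3 series. With a mean difference of at least 0.5, 33 of 2949 genes were higher and 26 lower, 19 and 17 of them named. The rule selects on the difference itself, so nothing is read from these counts. STK17A, a kinase of the death-associated family, had 0.80, 0.66 and 0.41 at days 4-5, against -0.20, -0.87 and 0.10 at days 2-3 and 0.17, -0.53 and 0.22 without doxycycline, with 1.36 at day 7. ETS1, a transcription factor of lymphocytes, had 0.94, 1.01 and 0.67, against 0.18, -0.50 and 0.43 and 0.04, 0.12 and 0.37. Both had windows that did not overlap. An average near 0 at days 2-3 can hide opposite series. CBX3, a heterochromatin protein, had -0.19, -0.16 and 0.26 at days 4-5, against -0.41, -1.96 and -0.10 at days 2-3 and -0.83, 0.18 and -0.98 without doxycycline, so that it lay far under its uninduced ratio early in series 1332b and above it in the others. CBX5, a related protein, had 0.38, 0.40 and 0.07, against -0.32, -0.97 and 0.00, and -0.84, -0.10 and 0.31 without doxycycline, and its later ratio was under the uninduced one in series 2046.

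On the lower side, KEAP1, the adaptor that keeps NRF2 low, had -0.48, -0.82 and -1.29 at days 4-5, against 0.10, -0.18 and 0.15 at days 2-3 and 0.11, -0.26 and -0.29 without doxycycline. KEAP1 had -0.28 at day 7 of series 1332. PTPN6, the phosphatase SHP-1, had -1.29, -0.58 and -1.20, against -0.44, 0.03 and -0.53, and -1.96 at day 7. PIM2, a survival kinase of myeloma, is outside this class because it had no uninduced value in series 1332. It had -0.71, -0.84 and -0.75, against -0.27, 0.02 and 0.12. The 3 later PIM2 arrays lay close together, and -0.86 was measured at day 7. KEAP1, PTPN6 and PIM2 each had an adjusted p of 0.274 and no overlap. PAX3 and ADGRE5, the receptor CD97, had differences of -0.72 ± 0.23 and -0.66 ± 0.22.

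GTF2F1, FASLG and HSPA1A had their lowest later ratios in series 1332b and 2046. GTF2F1, a subunit of general factor TFIIF, had 0.30, -0.98 and -1.58 at days 4-5, against 1.24, -0.03 and -0.42 at days 2-3. Each series was lower later although the arrays overlapped between series. Without doxycycline GTF2F1 had -0.24 and -0.60 in series 1332b and 2046 and no value in series 1332. FASLG, the death receptor ligand, had -0.03, -0.93 and -1.46, against 0.63, 0.35 and 0.16. Its uninduced ratios, 0.42, -0.23 and -0.76, had the same order of series. HSPA1A, inducible HSP70, had 0.01, -0.59 and -1.45, against 0.28, 0.04 and 0.74, and transcripts of its near-identical copy HSPA1B could bind its cDNA features. CORO1A, an actin regulator of leukocytes, had -0.39, -0.08 and -0.26, against 0.63, 0.85 and 0.48, and was thus lower by a similar amount in each series. IGHD had -0.08, -0.30 and -0.29, against 0.68, 0.83 and 0.47.

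Interferon and antigen presentation genes had median differences under 0, though above 0 in series 2046. Of 21 interferon response genes, 5 were lower in all 3 series (18.3% of all genes) and 3 higher (23.6%), with a median of -0.20. Of 9 genes of MHC class II and the invariant chain, 8 had a mean difference under 0, as had 1815 of all 3732 genes. Only 1 of the 9 was lower in all 3 series, and the median was -0.20. CD74, the invariant chain, had -0.02, -0.25 and 0.39 at days 4-5, against 0.82, 0.66 and 0.36 at days 2-3. B2M, the light chain of MHC class I, had -0.04, 0.87 and 0.23, against -0.78, -0.87 and 0.04. Its uninduced ratios were 0.24, 0.05 and 1.23, so in series 2046 it lay far under uninduced in both windows. SGK1, a growth-factor-induced kinase, was high in both windows, with 0.84, 0.85 and 1.29, against 0.71, 0.39 and 0.91, and 0.04, 0.22 and 0.08 without doxycycline.

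Since IRF4 binds interferon-stimulated and ETS composite elements, the promoters of RefSeq (250 bases before the start site, build GRCh38.p14) were searched on both strands for 2 motifs, GAAA or GGAA followed, after a gap of 2 bases of any kind, by GAAA. Either motif was present in 1449 of 27305 promoters (5.31%) and in 109 of 1891 tested genes (5.76%). It was present in 7 of 162 early lowered genes (4.32%), 2 of 33 early raised genes (6.06%), 1 of 15 late lower genes (6.67%) and 0 of 18 late higher genes. Matches of the 2 motifs can overlap. The shares lay near those of all promoters. The matches of B2M, SGK1 and FASLG are shown because these 3 genes followed the 3 different courses, a low that eased, a lasting high and a lower later ratio. Each line gives the promoter strand 5′ to 3′, with 1 match, in either orientation, in capitals. The B2M line also holds a further match of the same motif, which overlaps the marked one and is partly in lower case.
B2M (chr15:44711353-44711402, plus strand): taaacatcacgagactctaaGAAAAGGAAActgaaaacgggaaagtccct
SGK1 (chr6:134318303-134318352, minus strand): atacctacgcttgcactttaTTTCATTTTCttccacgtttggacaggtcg
FASLG (chr1:172659011-172659060, plus strand): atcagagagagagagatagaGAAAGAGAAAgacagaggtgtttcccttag
A match describes these letters only, and no binding was measured here.

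Early ratios varied with the length of the gene. Over 2268 named genes with a genomic span, Spearman's rho between span and log2 ratio was -0.087, 0.020 and -0.135 on the later arrays, against -0.205, -0.293 and -0.210 on the early arrays and 0.095, -0.125 and -0.137 on the uninduced arrays. Longer genes thus tended to lie lower early, and the within-series differences had rho of 0.167, 0.249 and 0.068. The median span was 43.4 kb for the 324 named genes higher later in all 3 series by at least 0.5 and 16.7 kb for the 133 lower, beside 29.9 kb for all 2268. Genes share arrays and chromosomal features, so these values are a description across genes. Their part in the differences between windows was not tested, nor was that of the lower number of features measured on the early arrays.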

How the data were processed

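Per the labels, total RNA was extracted with Trizol, labelled by reverse transcription and hybridised to Lymphochip spotted cDNA arrays. The authors deposited 1 table of log2 ratios, shIRF4 (Cy5) over shluc (Cy3), with no dye swap. For the log base, normalization and background correction the sources used here give nothing. Values from -9.78 to 7.51 were taken as log2. Of 15246 features, 10169 had 1 gene symbol, 4 several and 5073 none. Identifiers of 10128 matched RefSeq genes and 41 features kept their older symbol.

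Features with a value on all 6 arrays (5293) were centred on each array's median and averaged per gene, since features of a gene could disagree. limma 3.58.1 in R 4.3.3 fitted window with series as a block, from the series name in the labels, with Benjamini-Hochberg adjustment over 3732 genes and a threshold of 0.05. Deviations of same-series arrays from the window means correlated at 0.384, -0.104 and -0.042, and those of arrays of different series at -0.39 to 0.425. The same-series values thus did not stand out, and the fit without the block also gave 0 calls. Precision is limited by having 3 arrays a window, and the p-values reflect the spread of the series, which may be technical. Other settings changed 1 choice at a time (closing section). Named genes were IRF4, the 10 with the smallest p and a mean difference of 0.5 or more per direction, 4 per list, 8 of each fading or late class, the plasma cell markers, and, chosen after their values were seen, API5, MATR3, RPP30, ID3, LDHA, LSS and IARS1. Scripts were tested on simulated data. The comparison and the gene lists were chosen with earlier results of these data known.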

Additional observations from a re-analysis of the deposited data

How the results depend on the processing

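The count of 0 genes past the adjusted threshold held with no replicate block (606 with an unadjusted p under 0.05), with 9 or 13 arrays in the fit, with features on at least 2 series or on all 13 arrays, without centring, with centring within classes, with each feature alone and with a robust fit. Leaving out 1 series gave 0 to 318 genes in all, 0 to 304 higher and 0 to 14 lower, and the calls came from leaving out series 2046. The difference for IRF4 ran from 0.43 to 0.86 over the series left out, with adjusted p from 0.109 to 0.788. Without centring the median later minus early difference over features was 0.055. The slope on the early programme of series 1332b at days 2-3 was 1.28 against 0 in place of 0.85. For the early programme, the later slope stayed under the early one in every series. Of the named genes, 10 results changed sign. Over the series left out, the difference ran from -0.324 to 0.177 for ELL2, -0.591 to 0.004 for SSR4, -0.282 to 0.072 for CD3E, -0.054 to 0.298 for CTSS, -0.14 to 0.052 for CSF3R and -0.141 to 0.006 for SLC25A5, and FN1 reached -0.113 without series 2046. With both arrays of at least 2 series the differences were 0.215 for LAT and 0.095 for CSF3R, and with features on all 13 arrays -0.025 for HBA1. List medians under other settings moved 11 times and, on leaving out a series, 7 times. With features on all 13 arrays they were -0.106 for MYC targets, -0.097 for the citric acid cycle, -0.053 for ATF4, -0.1 for splicing, -0.053 for p53 and 0.151 for immediate early genes. With 9 arrays they were 0.553 for the citric acid cycle, 0.093 for ATF4, 0.368 for heat shock and -0.254 for B cell markers, and with at least 2 series 0.067 for kinases. Leaving out a series gave -0.333 to -0.047 for ATF4, up to 0.258 for splicing, up to -0.024 for kinases and -0.214 to 0.055 for plasma cell secretion. Of the held-out medians, 9 moved, 6 at a threshold of 1, where early raised genes were few (2, 35 and 7), and 3 against 0. The slopes of series 1332 on the later programme were 0.086 and 0.048 against 0. The causes were not tested.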
